A study of Mus musculus with 23 samples.

Results

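Border-associated macrophages are the resident macrophages of the meninges, the perivascular spaces and the choroid plexus, and 9 genes that mark them were followed here: Mrc1, Cd163, Lyve1, Pf4, F13a1, Cbr2, Stab1, Folr2 and Clec10a. They were taken by gene symbol from the 53090 genes of each deposited table, and all 9 were found and passed the filter on low counts that left 18720 genes to test. These macrophages lie at the brain's borders rather than in its tissue, sample fluid and blood-borne material by endocytosis, and carry scavenger receptors, lectins and a haemoglobin receptor many of which microglia in the tissue carry little of. Like microglia, they depend on signalling through CSF1R, and several of the 9 genes are also made by monocytes and by macrophages outside the brain.

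The libraries came from brain microglia of female C57BL/6 mice in 4 groups: young (Y, n = 7), young repopulated (Y-re, n = 3), old (O, n = 5) and old repopulated (O-re, n = 8). Depletion was by PLX5622, an inhibitor of CSF1R, given in AIN-76A chow at 1200 ppm, and repopulation is the return of the cells after depletion. Treatment controls ate AIN-76A chow without the drug, but the group labels do not state the chow of each library, and no source used here states ages, drug duration or recovery time. One protocol text describes magnetic selection of CD11b+ cells and their culture, another names flow-sorted cells as the RNA's source, and CD11b is carried by microglia, border macrophages and monocytes alike. Each value is a bulk measurement, so fewer cells of a type and less RNA per cell cannot be told apart. Nothing in the labels says that the libraries are from separate animals, so the p-values measure the spread between these samples.

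Total counts lay between 43.66 and 58.19 M (M for 1e06 reads) per library, and the 11 microglia genes examined (P2ry12, Tmem119, Cx3cr1 and others) were present in every library, at a summed 9955 to 32530 CPM, where CPM is counts per M scaled by TMM. Sample titles number the libraries, and every young repopulated library has a number from 12 to 24, so values within numbers 1 to 11 and within 12 to 24 are given as well; the titles do not say that these are batches. Several libraries stood apart for the markers. Young replicate 3 was the highest young library for Cd163, Pf4, F13a1, Cbr2 and Clec10a. Old replicate 3 was the highest old library for Mrc1, Pf4, F13a1, Cbr2, Folr2 and Clec10a and the lowest for Cd163 and Lyve1. Old repopulated replicate 1 was the lowest of its group for every member except Clec10a.

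Per transcript length, the 9 markers spanned a wide range. Stab1, a large scavenger receptor, had a median level of 728 TPM (transcripts per M, as deposited) in young libraries. Its young median stood far above that of Folr2 (41.1 TPM), Pf4 (24.7 TPM), Mrc1 (16.4 TPM), Cbr2 (15.9 TPM), F13a1 (9.93 TPM), Cd163 (6.51 TPM), Clec10a (3.12 TPM) and Lyve1 (2.1 TPM). The thinnest values were those of Clec10a, with 23 to 1130 reads per library, and of Lyve1, with 33 to 797, while no library had fewer than 1059 reads of Mrc1.

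Taken by group, 5 markers (Mrc1, Pf4, F13a1, Cbr2 and Clec10a) rose between young and old repopulated libraries, where 9.29% of all tested genes were called higher, and F13a1 and Clec10a also rose between young and old, where 2.6% were. Stab1 and Folr2 had no called difference in the fit of all libraries. Cd163 had its lowest group medians in the repopulated groups of both ages, although no comparison of it was called in that fit. The plot of CPM by library shows each value behind these statements.

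**Figure D1:**
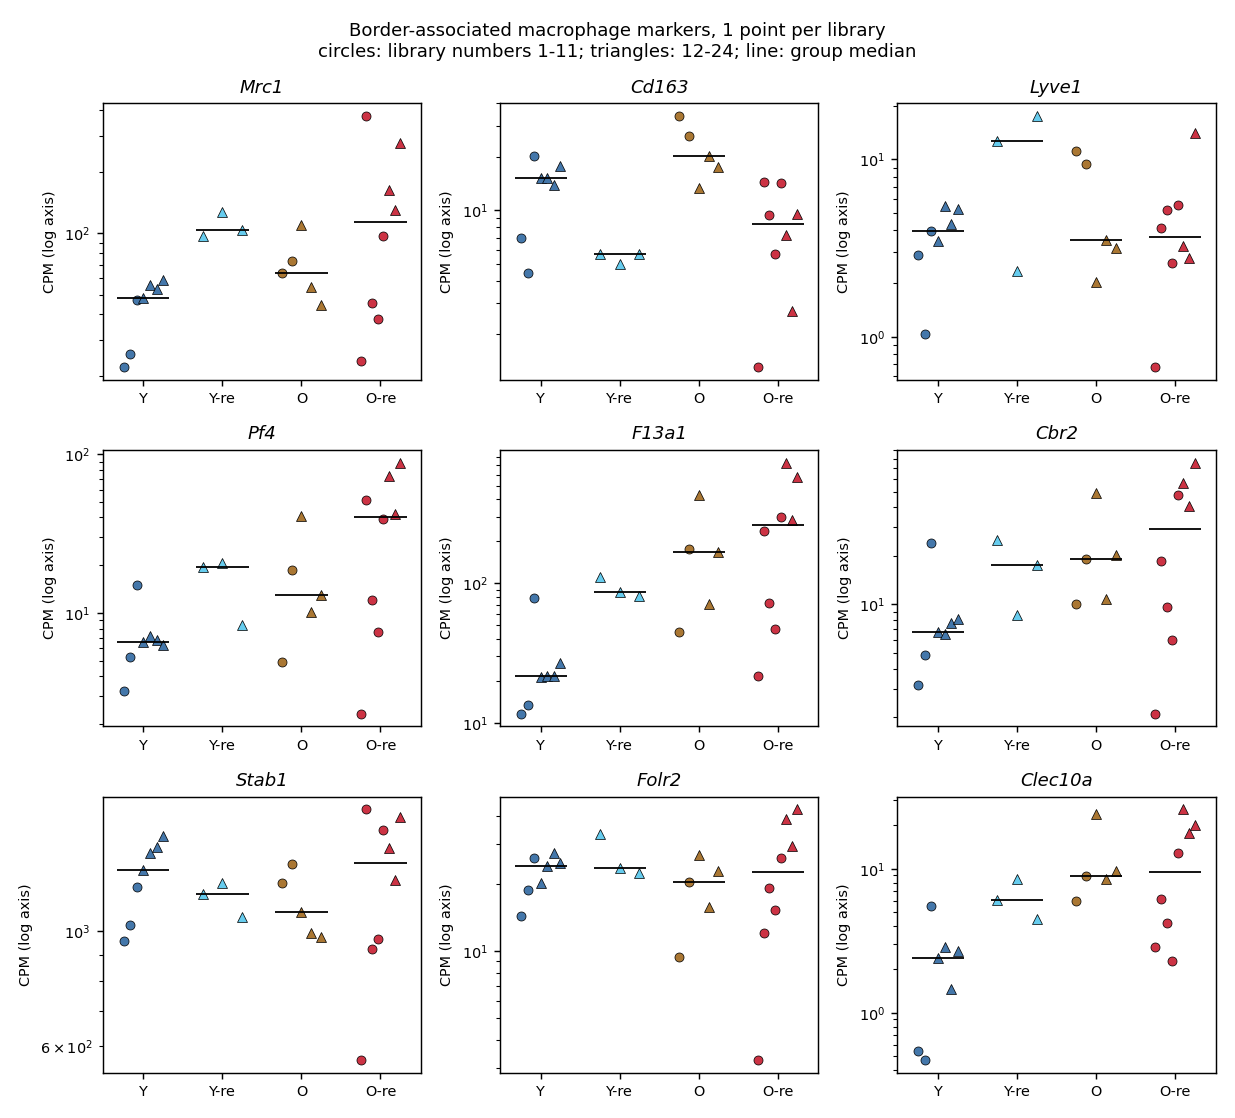
CPM of the 9 markers (log axis) in young (Y), young repopulated (Y-re), old (O) and old repopulated (O-re) libraries; each point is a library, circles have library numbers 1 to 11, triangles 12 to 24, and lines are group medians. In old repopulated libraries F13a1 ran from 21.58 to 731.5 CPM, and Cd163 sits at 5.00 to 5.70 CPM in the 3 young repopulated libraries.

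Mrc1 (ENSMUSG00000026712.3, chromosome 2, 14229392 to 14332057, + strand, GRCm38) encodes the mannose receptor CD206, which takes up glycoproteins. It measured 22.1 CPM at the lowest, 48.0 at the median and 58.7 at the highest of the 7 young libraries, and 97.2, 127.5 and 103.2 CPM in the 3 young repopulated ones. The old libraries had 64.2, 72.7, 110.1, 54.3 and 44.7 CPM, and the old repopulated ones 23.7, 114 and 375 CPM at the lowest, median and highest. All 3 young repopulated libraries therefore lay above all young ones, as held for 5.97% of all genes, whereas the old repopulated group reached from the lowest young values to the highest of the study. Old repopulated libraries were higher than young by 1.70 ± 0.45 (SE) on the log2 scale (edgeR quasi-likelihood test, Benjamini-Hochberg adjusted p = 0.0136), with 5 of 8 above every young library. Young repopulated exceeded young by 1.30 ± 0.55 without passing the test (edgeR adjusted p = 0.257), and old repopulated exceeded old by 1.05 ± 0.49 (edgeR adjusted p = 0.449). By median TPM the groups ran old repopulated (35.8), young repopulated (32.2), old (23.7) and young (16.4), and neither old repopulated against young repopulated nor old against young differed beyond the spread.

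Cd163 (ENSMUSG00000008845.9, chromosome 6, 124304656 to 124330527, + strand) encodes the receptor that clears haemoglobin bound to haptoglobin. Its levels were 4.46, 15.3 and 20.2 CPM (lowest, median, highest) in young libraries, 5.70, 5.00 and 5.67 CPM in the young repopulated ones, 34.0, 26.4, 13.4, 20.2 and 17.5 CPM in the old ones, and 1.31, 8.33 and 14.4 CPM (lowest, median, highest) in the old repopulated ones. Of the 8 old repopulated libraries, 6 lay below every old library. The log2 difference between old repopulated and old was -1.47 ± 0.41 (edgeR adjusted p = 0.127), and between young repopulated and young it was -1.29 ± 0.55 (edgeR adjusted p = 0.26), so neither passed the test. The lower level in old repopulated libraries was called by DESeq2, at -1.49 ± 0.41 (adjusted p = 0.0203), and by limma voom with sample quality weights, at -1.74 ± 0.39 (adjusted p = 0.0253). The order of median TPM was old (9.41), young (6.51), old repopulated (3.22) and young repopulated (2.24), with no neighbouring pair called by edgeR. The difference between old repopulated and young was -0.73 ± 0.38 by edgeR (adjusted p = 0.20) and was called by limma voom with sample quality weights, at -1.15 ± 0.36 (adjusted p = 0.0165), where 35.5% of all genes were called.

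Lyve1 (ENSMUSG00000030787.4, chromosome 7, 110850607 to 110863239, - strand) encodes a hyaluronan receptor shared by perivascular macrophages and lymphatic endothelium. Young libraries had 1.04, 3.92 and 5.47 CPM (lowest, median, highest), the young repopulated ones 12.7, 2.355 and 17.6 CPM, the old ones 11.2, 9.43, 2.03, 3.50 and 3.15 CPM, and the old repopulated ones 0.674, 3.67 and 14.2 CPM (lowest, median, highest). Replicates 1 and 3 of young repopulated stood above all young libraries and replicate 2 fell among them. The log2 differences were 1.53 ± 0.64 for young repopulated against young (edgeR adjusted p = 0.253) and 0.64 ± 0.57 for old against young (edgeR adjusted p = 0.659). The high old values were replicates 1 and 2, both of library numbers 1 to 11, and within numbers 12 to 24 the old against young difference turned to -0.66 ± 0.64. Median TPM was 7.82 in young repopulated, 2.365 in old repopulated, 2.17 in old and 2.1 in young libraries, and no neighbouring pair that was tested was called.

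Stab1 (ENSMUSG00000042286.13, chromosome 14, 31139013 to 31168641, - strand) encodes stabilin-1, which internalises modified lipoproteins and matrix fragments. It measured 954, 1306 and 1518 CPM (lowest, median, highest) in young libraries, 1177, 1234 and 1063 CPM in young repopulated ones, 1233, 1344, 1084, 988 and 972 CPM in old ones and 563.5, 1349 and 1713 CPM (lowest, median, highest) in old repopulated ones. The groups overlapped in every comparison, and the 5 log2 differences lay between -0.17 and 0.16, the former with an SE of 0.20. By median TPM, old repopulated (750.5), young (728), old (660) and young repopulated (563) followed each other, and no tested pair of neighbours differed beyond the spread.

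Among the lectins, Clec10a (ENSMUSG00000000318.16, chromosome 11, 70156197 to 70170834, + strand) encodes a galactose-type lectin of macrophages and dendritic cells. It measured 0.468, 2.39 and 5.52 CPM (lowest, median, highest) in young libraries and 6.11, 8.44 and 4.48 CPM in young repopulated ones. Old libraries had 5.95, 8.86, 24.1, 8.53 and 9.69 CPM, and old repopulated ones 2.305, 9.51 and 25.95 CPM (lowest, median, highest). Every old library was above every young one, as held for 1.43% of all genes. Clec10a rose by 2.33 ± 0.60 on the log2 scale between young and old (edgeR quasi-likelihood test, adjusted p = 0.0363) and by 2.34 ± 0.56 between young and old repopulated (edgeR adjusted p = 0.00786, 5 of 8 above the highest young library). The call between young and old was lost in 8 of 23 fits that left out 1 library, with adjusted p up to 0.211. Old repopulated and old differed by 0.01 ± 0.57, and young repopulated exceeded young by 1.48 ± 0.67 (edgeR adjusted p = 0.296). Median TPM was 14.2 in old repopulated, 13.7 in old, 8.23 in young repopulated and 3.12 in young libraries. Of the stretches of 50 bases in its transcripts, 9.02% also occur in another gene, its neighbour Mgl2 among them, so how the counting divided reads between them makes both counts uncertain.

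Folr2 (ENSMUSG00000032725.10, chromosome 7, 101839988 to 101857194, - strand) encodes folate receptor beta of resident macrophages. It measured 14.3, 24.1 and 27.35 CPM (lowest, median, highest) in young libraries, 33.5, 23.4 and 22.3 CPM in young repopulated ones, 9.38, 20.3, 26.9, 15.8 and 22.8 CPM in old ones and 3.25, 22.6 and 43.05 CPM (lowest, median, highest) in old repopulated ones. The groups overlapped throughout and the log2 differences ran from -0.22 ± 0.39 (old against young) to 0.30 ± 0.38 (old repopulated against old). Group medians were within 37.5 to 41.4 TPM.

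Of the secreted factors, F13a1 (ENSMUSG00000039109.16, chromosome 13, 36867178 to 37050244, - strand) encodes the A chain of coagulation factor XIII, which cross-links fibrin. Its young values were 11.6, 21.5 and 78.3 CPM (lowest, median, highest) and its young repopulated values 110.5, 86.5 and 81.6 CPM. These groups did not overlap, with young repopulated higher, as held for 5.97% of all genes. The old libraries held 44.55, 174.5, 432, 71.5 and 167 CPM and the old repopulated ones 21.6, 261 and 731.5 CPM (lowest, median, highest), both overlapping with young. F13a1 was higher in old than in young by 2.68 ± 0.68 (edgeR adjusted p = 0.035), a mean CPM 6.39 times that of young, with 3 of 5 old libraries above the young range, and this call too was lost in 8 of 23 fits that left out 1 library (adjusted p up to 0.219). It was higher in old repopulated than in young by 3.35 ± 0.66 (edgeR adjusted p = 0.00243), a mean 10.2 times as high, with 5 of 8 above the young range. Young repopulated exceeded young by 1.74 ± 0.75 without passing the test (edgeR adjusted p = 0.269). The order of median TPM was old repopulated (112), old (75.7), young repopulated (37.0) and young (9.93), and old repopulated did not differ from old beyond the spread (0.67 ± 0.67, edgeR adjusted p = 0.825).

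Pf4 (ENSMUSG00000029373.7, chromosome 5, 90772435 to 90773383, + strand) encodes the chemokine CXCL4, known from platelets and made by border macrophages. It measured 3.23, 6.61 and 15.1 CPM (lowest, median, highest) in young, 19.5, 20.7 and 8.45 CPM in young repopulated, 4.89, 18.7, 40.7, 10.2 and 13 CPM in old and 2.33, 40.5 and 88.7 CPM (lowest, median, highest) in old repopulated libraries. Its rise between young and old repopulated was 2.45 ± 0.58 (edgeR adjusted p = 0.00776), with 5 of 8 libraries above the young range. The smaller steps were not called: 1.28 ± 0.61 for old against young (edgeR adjusted p = 0.324), 1.17 ± 0.70 for young repopulated against young (edgeR adjusted p = 0.464) and 1.17 ± 0.63 for old repopulated against old (edgeR adjusted p = 0.552). By median TPM the groups ran 150.2 (old repopulated), 63.95 (young repopulated), 49.2 (old) and 24.7 (young).

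Cbr2 (ENSMUSG00000025150.10, chromosome 11, 120729489 to 120732114, - strand) encodes a carbonyl reductase. It measured 3.17, 6.75 and 23.95 CPM (lowest, median, highest) in young, 24.95, 8.62 and 17.5 CPM in young repopulated, 9.98, 19.1, 48.7, 10.8 and 20.3 CPM in old and 2.10, 29.5 and 75.6 CPM (lowest, median, highest) in old repopulated libraries. It rose by 1.88 ± 0.60 between young and old repopulated (edgeR adjusted p = 0.0365, 4 of 8 above the young range), and old exceeded young by 1.32 ± 0.64 (edgeR adjusted p = 0.331). The call is narrow: it was lost in each of 10 fits that left out 1 library (any of young replicates 1, 2, 4, 5, 6 and 7 or old repopulated replicates 5 to 8), where adjusted p ran from 0.0558 to 0.0872. In its transcripts, 12.1% of the 50-base stretches also occur in Gm11771, so its count is uncertain too.

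Read by comparison, old against young called 2 of the 9 markers (F13a1 and Clec10a), both higher, where 2.6% of all 18720 genes were called higher and 2.83% in either direction. The median log2 difference of the 9 was 0.74, against -0.01 for all genes. Both calls were lost in each of 8 fits that left out 1 library: without any of young replicates 1, 2, 4, 5, 6 and 7 or old replicates 3 and 5. Without old replicate 3, F13a1 was at 2.04 ± 0.67 (edgeR adjusted p = 0.219) and Clec10a at 1.86 ± 0.60 (edgeR adjusted p = 0.211), and in the other 7 fits adjusted p lay between 0.0586 and 0.0792.

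The comparison of old repopulated with young called 5 of the 9, all higher, where 9.29% of genes were called higher and 15.2% in either direction, with a median log2 difference of 1.70 against -0.02 for all genes. In these calls the groups overlapped for each of the 5, since some old repopulated libraries stayed within the young range. Old against young and old repopulated against young share the young libraries. For F13a1 the paired differences were 2.68 and 3.35, for Clec10a 2.33 and 2.34, for Pf4 1.28 and 2.45, for Cbr2 1.32 and 1.88, and for Mrc1 0.64 and 1.70.

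Repopulation within an age called none of the markers by edgeR. Young repopulated against young had a member median of 1.17 (all genes -0.04), with 7 of 9 markers higher and 5 at an unadjusted p under 0.05, as were 15.1% of all genes, while 1.34% of all genes were called. DESeq2 called 0 of the 9 there (4.35% of genes) and limma voom with sample quality weights called 4 (Mrc1, Cd163, Lyve1 and F13a1), where it called 13.8% of all genes. A fit of those groups alone called 2 (Mrc1 and F13a1), with 7.5% of its genes called. Old repopulated against old had a member median of 0.30 (all genes 0.0), 2 markers and 10.4% of all genes at an unadjusted p under 0.05, and 0.278% of all genes called. DESeq2 and limma voom each called Cd163 alone, where they called 1.66% and 2.21% of genes. Old repopulated against young repopulated and the test of whether the repopulation difference depends on age each called 0 markers and 0.0% of genes by edgeR, with 0 and 1 marker (Lyve1, -1.82 ± 0.85) at an unadjusted p under 0.05, beside 11.7% and 8.24% of all genes. DESeq2 called 0 markers in both (0.433% and 0.235% of genes), and limma voom called Lyve1 in the former (17% of genes) and 0 in the latter (0.807%). The repopulation differences at the 2 ages are therefore not shown to differ for any of the 9 by that fit.

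**Figure D2:**
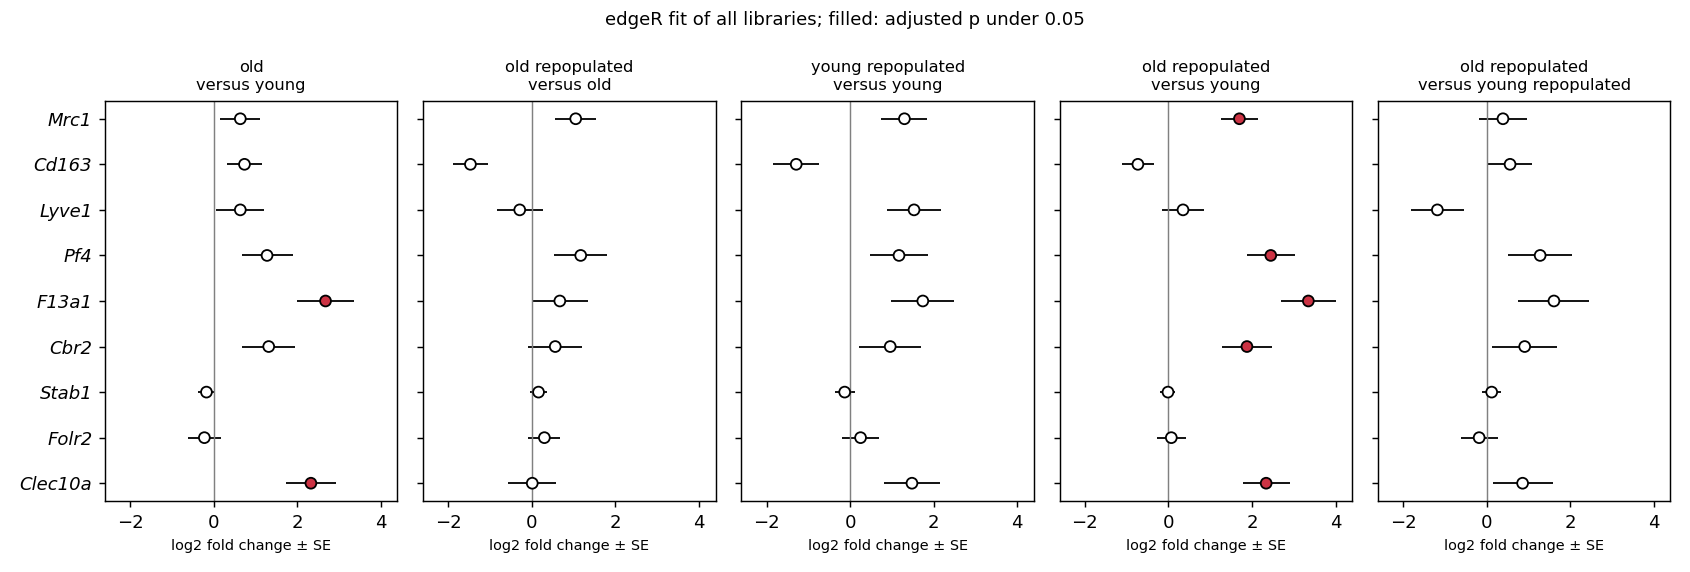
Log2 fold change with its SE for the 9 markers in 5 comparisons, from the edgeR fit of all 23 libraries; filled points have an adjusted p under 0.05. The filled points are F13a1 and Clec10a in old versus young and Mrc1, Pf4, F13a1, Cbr2 and Clec10a in old repopulated versus young, and Cd163 lies left of 0 after repopulation at both ages, at -1.47 and -1.29.

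The ranges of library numbers gave different results. Among numbers 12 to 24 (4 young, 3 young repopulated, 3 old and 3 old repopulated libraries), old repopulated libraries were above all young ones for Mrc1 (130.6 to 276 CPM against 48.0 to 58.7), Pf4 (41.9 to 88.7 against 6.31 to 7.22), F13a1 (285 to 731.5 against 21.4 to 26.8), Cbr2 (40.5 to 75.6 against 6.54 to 8.17), Folr2 (29.4 to 43.05 against 20.1 to 27.35) and Clec10a (17.7 to 25.95 against 1.45 to 2.88). Cd163 was below all young ones, at 2.69 to 9.54 against 13.8 to 17.8 CPM. In this range 24.6% of the 18720 genes had all old repopulated libraries above all young ones, and 24.1% had them below. A fit of these libraries alone called those 7 markers, where 41.1% of its 17186 genes were called. F13a1 was at 4.54 ± 0.49 there (edgeR adjusted p = 5.9e-05) and Cd163 at -1.25 ± 0.31 (edgeR adjusted p = 0.00685).

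The same range called markers in the other comparisons as well. Old repopulated against old gave 5 of 9 (12.7% of genes): Mrc1 at 1.45 ± 0.31, Pf4 at 1.68 ± 0.47, Stab1 at 0.52 ± 0.11 and Folr2 at 0.77 ± 0.21 were higher, and Cd163 at -1.40 ± 0.33 was lower. Young repopulated against young gave 4 of 9 (9.3% of genes): Mrc1 at 1.05 ± 0.29, F13a1 at 2.05 ± 0.45 and Clec10a at 1.46 ± 0.36 were higher, and Cd163 at -1.48 ± 0.32 was lower. Cd163 was thus called lower after repopulation at both ages in these libraries. Its groups did not overlap there, as held for 13.8% of the 18720 genes (lower in old repopulated than in old) and 15.3% (lower in young repopulated than in young). Old against young gave 5 of 9 (15.7% of genes), with F13a1 at 3.29 ± 0.47, Clec10a at 2.59 ± 0.36, Cbr2 at 1.87 ± 0.43 and Pf4 at 1.66 ± 0.43 higher and Stab1 at -0.48 ± 0.10 lower.

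Old repopulated against young repopulated gave 5 of 9, all higher (36.3% of genes): F13a1 at 2.49 ± 0.50, Pf4 at 2.04 ± 0.47, Cbr2 at 1.74 ± 0.47, Clec10a at 1.72 ± 0.38 and Stab1 at 0.30 ± 0.11. The dependence of repopulation on age was called for Stab1 (0.78 ± 0.15, edgeR adjusted p = 0.0143; 8.87% of genes). Within numbers 1 to 11 (3 young, 2 old and 5 old repopulated libraries) no marker was called in any of the 3 comparisons possible, where 0.00533%, 0.0% and 0.0107% of genes were called. Old repopulated against young was 1.96 ± 0.95 for F13a1, 1.88 ± 0.81 for Mrc1, 1.51 ± 0.91 for Pf4, 1.37 ± 0.84 for Clec10a and 0.64 ± 0.89 for Cbr2 there. With the number range as a term in the fit of all libraries, the same counts of markers were called as without it, 2 and 5.

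**Figure D3:**
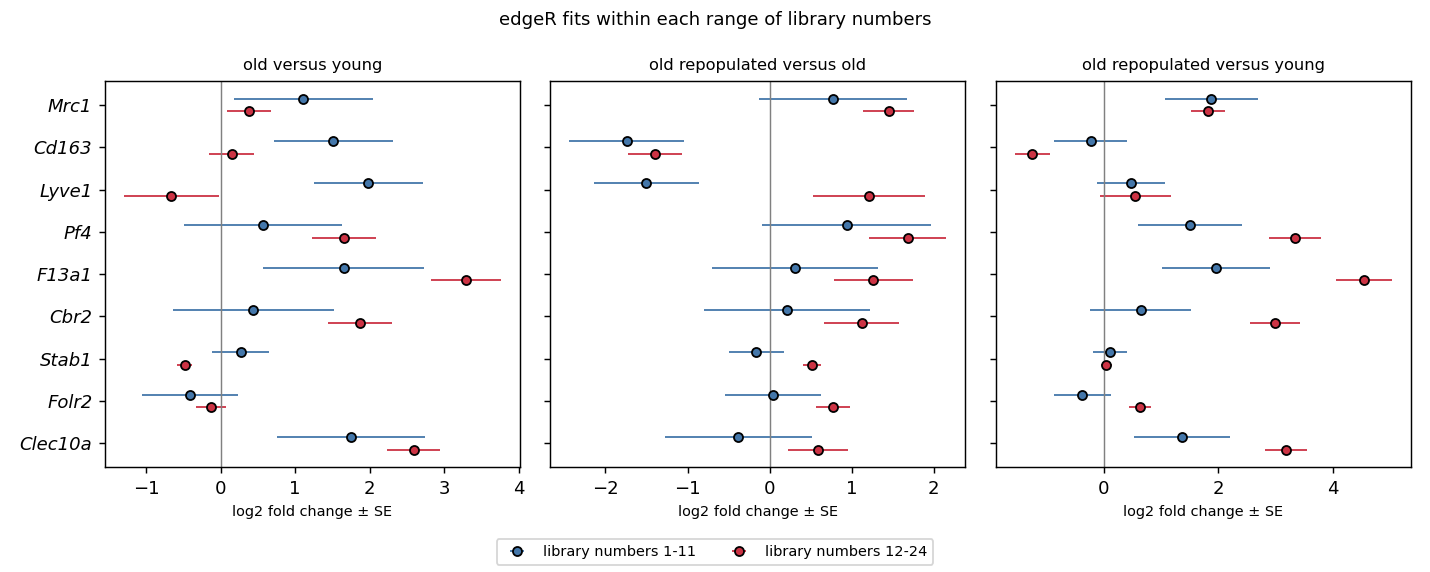
Log2 fold change with its SE for the 9 markers in the edgeR fit of library numbers 1 to 11 alone (blue) and 12 to 24 alone (red). In old versus young, Lyve1 and Stab1 lie on opposite sides of 0 (-0.66 and -0.48 in numbers 12 to 24, the latter called there). In old repopulated versus young F13a1 is right of 0 in both.

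Across libraries the markers moved in part together. With each group's mean removed, log2 CPM of F13a1 had a Pearson r of 0.96 with Pf4 and 0.96 with Cbr2 over the 23 libraries, which share group structure and depth, so these are descriptions. Each marker set against the average of the other 8 gave an r of 0.92 for Cbr2, 0.91 for F13a1, 0.90 for Pf4, 0.85 for Stab1, 0.82 for Mrc1 and for Folr2, 0.79 for Clec10a, 0.58 for Cd163 and 0.49 for Lyve1. Cd163 and Lyve1 were nearer to each other (r = 0.75) than Cd163 was to F13a1 (0.42) or Lyve1 to Pf4 (0.31), and with Stab1 they had an r of 0.75 (Cd163) and 0.63 (Lyve1). The 10 genes whose within-group pattern was most like the average of the 9 were Sdhc (r = 0.96), Dera, Rab1b, AI427809, Atp5g1, Atp5b, Psma1, Rad23b, Txn2 and Psmd13 (the last at 0.93). None is a marker of border macrophages: Sdhc, Atp5g1 and Atp5b encode mitochondrial proteins of respiration, and Psma1 and Psmd13 subunits of the proteasome. Without old repopulated replicate 1, Sdhc again came first (r = 0.95) and 5 of the 10 were among the first 10.

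Promoters are shown for F13a1 and Pf4, a pair with an r of 0.96, for Mrc1, which was called in old repopulated libraries, and for Cd163, whose log2 differences after repopulation had the opposite sign. RefSeq (GRCm38.p6) held start sites for 7 of the 9 markers, with 9 windows in all, and each window is the 250 bases before a start, 5′ to 3′ on the gene's strand. Capitals mark matches on either strand to GGAAGT, the core that ETS factors such as the myeloid factor PU.1 bind. F13a1 has a pair of windows.
Pf4, chr5:90772185-90772434, + strand: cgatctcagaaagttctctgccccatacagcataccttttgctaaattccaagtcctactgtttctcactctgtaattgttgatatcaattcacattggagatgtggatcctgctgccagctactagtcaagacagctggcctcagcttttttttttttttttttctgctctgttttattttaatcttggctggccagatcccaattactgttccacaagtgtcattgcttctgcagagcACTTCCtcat
F13a1 first start, chr13:37050245-37050494, - strand: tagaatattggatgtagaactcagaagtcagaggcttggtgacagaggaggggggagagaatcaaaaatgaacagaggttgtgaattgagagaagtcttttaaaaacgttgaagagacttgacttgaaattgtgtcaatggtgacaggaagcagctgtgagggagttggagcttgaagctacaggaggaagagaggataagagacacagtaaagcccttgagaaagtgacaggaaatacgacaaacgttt
F13a1 second start, chr13:37049214-37049463, - strand: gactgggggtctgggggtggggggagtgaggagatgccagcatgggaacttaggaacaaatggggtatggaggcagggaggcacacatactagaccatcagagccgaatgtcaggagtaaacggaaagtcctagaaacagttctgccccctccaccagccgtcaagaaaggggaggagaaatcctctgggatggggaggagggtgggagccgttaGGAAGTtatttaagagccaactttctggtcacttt
Mrc1, chr2:14229164-14229413, + strand: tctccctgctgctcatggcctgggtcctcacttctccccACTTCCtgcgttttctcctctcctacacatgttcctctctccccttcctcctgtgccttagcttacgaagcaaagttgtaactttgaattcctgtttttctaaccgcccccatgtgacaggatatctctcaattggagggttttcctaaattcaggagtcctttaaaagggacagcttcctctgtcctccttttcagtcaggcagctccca
Cd163, chr6:124304401-124304650, + strand: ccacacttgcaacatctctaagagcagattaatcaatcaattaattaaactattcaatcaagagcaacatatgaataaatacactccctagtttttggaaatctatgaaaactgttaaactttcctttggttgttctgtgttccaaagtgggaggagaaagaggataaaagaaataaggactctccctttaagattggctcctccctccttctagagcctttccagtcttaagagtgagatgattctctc
GGAAGT or its complement occurred in 4 of the 9 windows of the markers and in 19.7% of all 32851 windows. The Pf4 match begins 10 bases before the start and extends to the longer GAGGAAGT, which contains GGAAGT and which 1 of 9 windows and 2.44% of all windows hold. TGCTGA, bound by MAF factors, was found in 3 of 9 windows (Stab1 and both of Folr2) and in 16.1% of all. A match is a description of the letters and not a measured site.

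A further 22 genes known from border macrophages were examined, of which 21 were tested. Old against young called 3 of them, all higher, where 2.6% of all genes were. These were Ms4a7, a tetraspan membrane protein of macrophages, at 2.74 ± 0.54, Siglec1, the sialic acid receptor sialoadhesin, at 1.45 ± 0.35, and Cd38, an enzyme that uses NAD, at 3.22 ± 0.80. Old repopulated libraries had 7 called higher and 2 lower than in young (9.29% and 5.92% of all genes), with a list median of 0.97. The higher ones were Timd4 (3.23 ± 1.05), Clec4n (3.22 ± 0.66), Mgl2 (3.02 ± 0.45), Cd36 (2.90 ± 0.53), Cd38 (2.88 ± 0.75), Ms4a7 (2.74 ± 0.51) and Siglec1 (1.62 ± 0.32), and the lower ones were Slc40a1, the iron exporter ferroportin (-1.30 ± 0.35), and Cd209g.

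In young repopulated against young, where none of the 9 markers was called and 0.828% of all genes were called higher, Ms4a7 (2.47 ± 0.59, edgeR adjusted p = 0.0394) and Mgl2 (3.36 ± 0.52, edgeR adjusted p = 0.00215) rose. Mgl2, the lectin gene next to Clec10a, measured 0.406 to 1.57 CPM in young, 6.03 to 11.5 CPM in young repopulated, 1.55 to 3.96 CPM in old and 1.82 to 16.55 CPM in old repopulated libraries. Every young repopulated library was therefore above every young one for Mgl2, as held for 5.97% of all genes. Every old repopulated library was too, by a small margin (1.82 against 1.57 CPM), and the share of all genes was not counted there. Clec10a overlapped between young and both repopulated groups.

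Of the Cd209 lectin genes, Cd209b, Cd209f and Cd209g had low counts, while Cd209a, with 54 reads in young, 882 in young repopulated, 1005 in old and 2007 in old repopulated libraries, was called higher in both repopulated groups than in young. Cd209g had 51 reads in the 7 young and 64 in the 5 old libraries and 0 in all 11 repopulated ones. With 3 reads over the group in place of 0, its pooled level was 36.1-fold lower in old repopulated than in old. It was 7.21-fold lower in young repopulated and 21.1-fold lower in old repopulated than in young. These folds leave out the spread between libraries, with reads in 6 of 7 young and 4 of 5 old ones. For Cd209g, edgeR called old repopulated against old (adjusted p = 0.0407) and against young (adjusted p = 0.00554). Cd209f had 194 reads in young, 6 in young repopulated, 447 in old and 57 in old repopulated libraries, and Cd209b had 52, 1, 190 and 11. Old and old repopulated libraries did not overlap for either gene, although neither was called (edgeR adjusted p = 0.108 for Cd209f and 0.0818 for Cd209b), and 0.433% of all genes were without overlap and lower in old repopulated than in old. Cd209d, with 6, 0, 26 and 19 reads, was not tested.

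**Figure D4:**
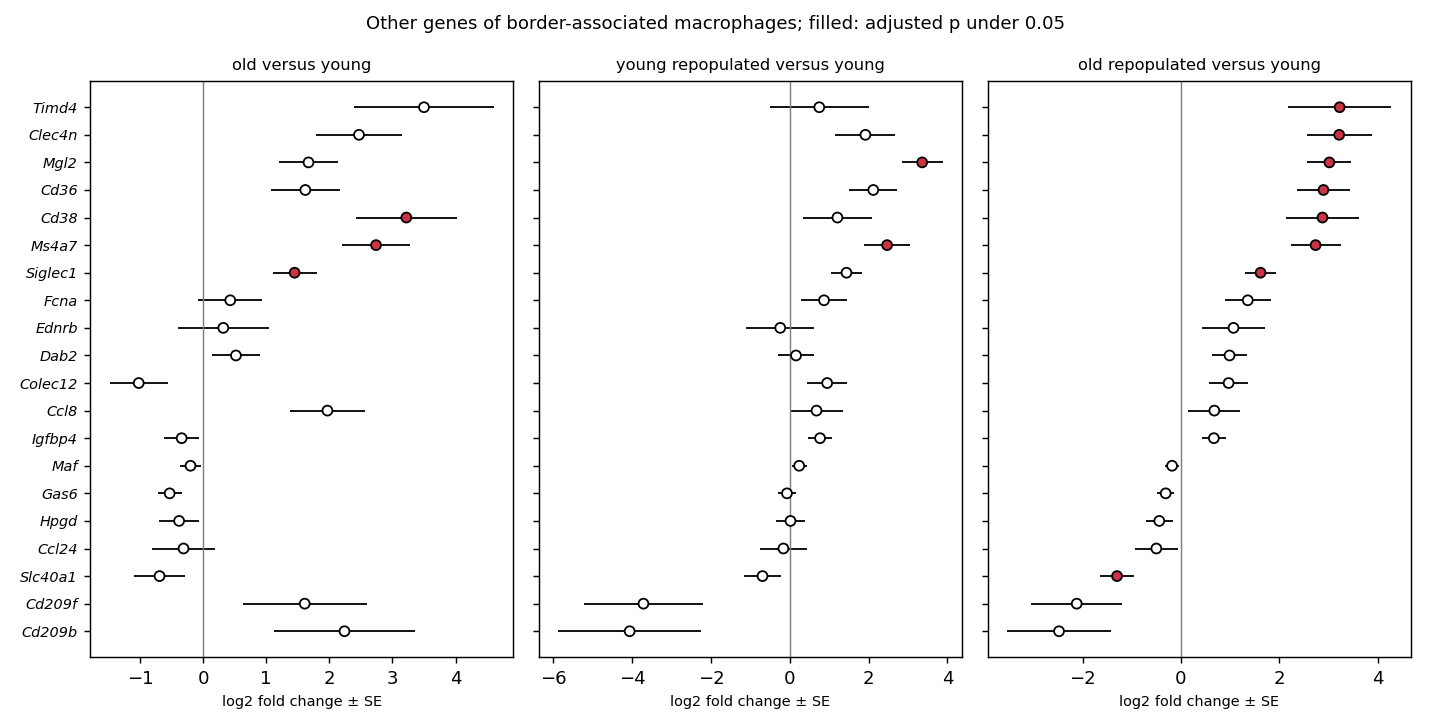
Log2 fold change with its SE for 20 other border macrophage genes in 3 comparisons; filled points have an adjusted p under 0.05. Mgl2 and Ms4a7 are filled in young repopulated versus young, Cd209f and Cd209b lie left of 0 in both repopulated groups, and Cd209g is not drawn because its repopulated libraries are all at 0.

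Of 20 other scavenger and lectin receptors, 19 were tested, some also in the list above. Old against young called 3 higher (2.6% of all genes) and young repopulated against young 3 higher (0.828%). Old repopulated against old called 1 lower (Cd209g, with 0.214% of all genes called lower). Old repopulated against young called 8 higher and 2 lower (9.29% and 5.92%). Clec7a, the beta-glucan receptor dectin-1, was called higher in old, young repopulated and old repopulated than in young, at 0.63 ± 0.14, 1.34 ± 0.16 and 1.09 ± 0.13. Cd209a, which is also on the list of dendritic cell genes below, was called in the same comparisons, at 4.66 ± 0.75, 5.23 ± 0.80 and 4.92 ± 0.73. The scavenger receptors Msr1 (1.51 ± 0.47) and Olr1 (1.53 ± 0.41) were higher and Scarb1 (-0.52 ± 0.14) was lower in old repopulated than in young libraries. Among 12 genes of haem and iron handling, the pathway that CD163 feeds, old repopulated against young called 8 higher and Slc40a1 lower (9.29% and 5.92% of all genes). The higher ones included the haem oxygenase Hmox1 (0.89 ± 0.24), the biliverdin reductase Blvrb (0.78 ± 0.15), the ferritin chain Fth1 (0.90 ± 0.17) and haptoglobin, Hp (2.85 ± 0.80). Old against young called 2 of the 12 (Fth1 and Slc11a1), young repopulated against young 1 (Slc11a1, 0.85 ± 0.10) and old repopulated against old 0. Those comparisons called 2.83%, 1.34% and 0.278% of all genes.

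Markers of other myeloid cells moved with the same groups. The summed level of 8 monocyte genes (Chil3, Ccr2, Ly6c2 and others) was 27.6 to 270.1 CPM in young, 106.9 to 362 in young repopulated, 141 to 2735 in old and 122 to 3152 CPM in old repopulated libraries. Chil3 had the highest mean of the 8 in young, old and old repopulated libraries, so these sums depend much on that gene. Highest values of Chil3 there were 151.7, 756.3 and 1910 CPM, against 45.8, 561.6 and 452.5 CPM for Ccr2 and 7.76, 377.6 and 86.4 CPM for Ly6c2. Of the 8, 6 were called higher in old than in young and 7 in old repopulated than in young (2.6% and 9.29% of all genes). None of the 8 was at 0 throughout. Young replicate 3, with the highest young F13a1, Pf4, Cbr2 and Clec10a, had a monocyte sum of 270.1 CPM against 27.6 to 51.7 CPM in the other 6 young libraries. Old replicate 3 had 2735 CPM beside 432 CPM of F13a1, and old repopulated replicate 6 had 3152 CPM beside 731.5 CPM. Mrc1 did not peak with that sum, since its highest library, old repopulated replicate 2 (375 CPM), had a monocyte sum of 166 CPM. In that library F13a1 (237.7 CPM), Pf4 (51.3 CPM) and Clec10a (6.16 CPM) also lay above every young library, and Cbr2 (18.5 CPM) did not. The part of monocytes in the rises of F13a1, Pf4, Cbr2, Clec10a and Mrc1 was not tested.

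The 7 MHC class II genes had a summed 221 to 752.5 CPM in young, 741 to 1814 in young repopulated, 487 to 5621 in old and 608 to 3642 CPM in old repopulated libraries. Of them, 5 and 6 were called higher in old and in old repopulated than in young (2.6% and 9.29% of all genes). The 8 neutrophil genes had a summed 10.8 to 84.05 CPM in young and up to 311 CPM elsewhere, with 5 called higher in each of those comparisons. For the 8 dendritic cell genes the sums were 10.8 to 16.3 CPM in young and up to 149.5 CPM elsewhere. In each of those comparisons 4 of the 8 were called higher, among them Cd209a, already counted with the lectin receptors. The 11 microglia genes ran the other way, with a median sum of 30770 CPM in young, 25380 in young repopulated, 20330 in old and 16170 CPM in old repopulated libraries. Fcrls was called lower in old, and Fcrls, Olfml3, P2ry12 and Csf1r in old repopulated, against young. The part of these genes' cells in the marker results was likewise not tested.

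**Figure D5:**
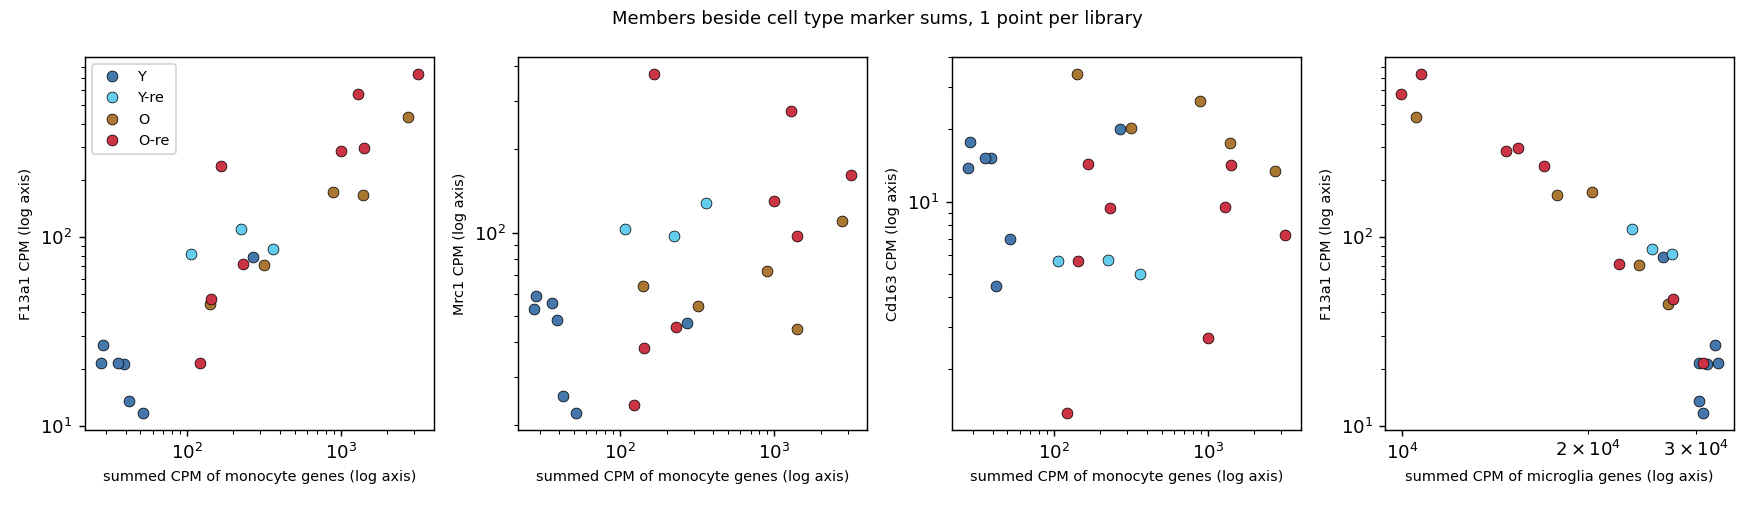
CPM of F13a1, Mrc1 and Cd163 against the summed CPM of 8 monocyte genes, and of F13a1 against the summed CPM of 11 microglia genes (log axes), 1 point per library, coloured by group. F13a1 is highest, at 731.5 CPM, in the library with the highest monocyte sum, 3152 CPM, whereas the highest Mrc1 value, 375 CPM, is beside a sum of 166 CPM. In the library with that sum of 166 CPM, F13a1 is at 237.7 CPM.

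Some of the markers are known from other cells as well. Platelets hold Pf4, and 8 platelet and megakaryocyte genes summed to 3.58 to 15.4 CPM over all libraries, with Itga2b, Gp1bb and Gp6 under 1 CPM in every library and no gene called. Gp9, of the platelet receptor for von Willebrand factor, had a median of 6.09 CPM in young, 3.375 in young repopulated, 3.48 in old and 1.735 CPM in old repopulated libraries, and its young median per length was 12.6 TPM beside 24.7 TPM for Pf4. Ppbp, another platelet gene, had low counts but was highest in old repopulated libraries, with a mean of 0.485 CPM. Its means were 0.0777 CPM in young, 0.0214 in young repopulated and 0.0841 CPM in old libraries. Lymphatic endothelium holds Lyve1, and its 4 usable genes summed to 2.21 to 24.1 CPM, with Mmrn1 at 0 and Reln under 1 CPM throughout and Prox1 called lower in old repopulated than in young (-1.54 ± 0.34). The median sums of those 4 genes were 18.5 CPM in young and 10.7 CPM in young repopulated libraries, opposite in order to those of Lyve1. Most of that sum was Prox1, with a median of 18.5 CPM in young libraries, and per length its young median of 4.06 TPM stood above the 2.1 TPM of Lyve1. The part of platelets and lymphatic endothelium in the values of Pf4 and Lyve1 was not tested. Blood endothelium (7 genes) summed to 16.8 to 60.1 CPM, with Flt1 called higher in old and in both repopulated groups, and Pecam1 lower in both repopulated groups, against young. Sums were 0.531 to 48.6 CPM for meningeal fibroblasts (7 genes), 1.05 to 87.6 CPM for choroid plexus epithelium (6 genes) and at most 2.91 CPM for T and NK cells (7 genes), with none called in any comparison.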

How the data were processed

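Messenger RNA was measured in 23 libraries of brain microglia, as single reads of 50 nt from stranded poly(A) libraries, per the labels' protocols. The submitters' processing notes name GRCm38, FastQC 0.11.5, STAR, RSEM and limma, with no role or order, and no source used here names the annotation. The authors deposited 1 table per library with the columns of RSEM gene results, per the file headers. The deposited expected counts, estimates that need not be whole (87.26% were, within 1e-06), were rounded for testing, and the deposited TPM values served for levels between genes and as an alternative unit. No library pair of a group was alike enough to be a duplicate (smallest chi-square per degree of freedom 17.76).

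Counts were fitted in R 4.3.3 with edgeR 4.0.16: filterByExpr (18720 genes), TMM, 1 coefficient per group, quasi-likelihood tests of 6 contrasts, and Benjamini-Hochberg adjustment over all genes tested. A gene was called at an adjusted p under 0.05. An SE is that of the log2 fold change. CPM values are scaled by TMM. Log2 CPM for the correlations used a prior count of 2. Coordinates are from GENCODE M21 (GRCm38). The markers, the gene lists and the tests were chosen with earlier results of these data known. All 9 markers were named. From the other border macrophage, scavenger and haem lists, genes called were named, in the haem list not all of them, and also Cd209 genes that were not called. From the lists of other cell types, examples and genes called were named. As most like the markers, the 10 highest correlations were taken among genes of at least 1 CPM that are neither predicted genes nor pseudogenes. Pdpn and Ccl21a, which occur on more than 1 row, were left out of the lymphatic list. The fit was tested on simulated data.

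Alternatives were size factors by RLE or upper quartile, all genes with a count or those averaging 5 CPM or more, DESeq2 1.42.0, voom of limma 3.58.1 with weights for sample quality, fits of the compared groups alone, the number range as a term or alone, and leaving out each library. Leaving out young replicate 3 and old repopulated replicate 1 together was added after the data were seen.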

Additional observations from a re-analysis of the deposited data

Results flagged for a closer look

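Of 27 sets of values tested (9 markers in the 3 groups of 5 to 8 libraries), 6 held a library far from the others. The cut-offs give about 1 in 20 by chance for independent sets of normally distributed values, but were applied to CPM without logs. F13a1, Pf4 and Cbr2 also moved together (r of 0.91 to 0.96), so 6 of 27 is not a measured excess. Young replicate 3 was far above the other young libraries for Pf4 (15.1 CPM), F13a1 (78.3 CPM) and Cbr2 (23.9 CPM). Old replicate 3 was far above the other old libraries for Cbr2 (48.7 CPM) and Clec10a (24.1 CPM). Old repopulated replicate 8 was far above its group for Lyve1 (14.2 CPM). Young replicate 3 and old replicate 3 also had the highest sums of the 8 monocyte genes in their groups, at 270.1 and 2735 CPM. The part of those genes' cells in these values was not tested.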

How the results depend on the processing

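Size factors by RLE or upper quartile, dropping the filter, requiring 5 CPM on average and the number range as a term left each count of called markers within 1.5 times the count reported. Old against young called 0 markers within numbers 1 to 11, 5 within numbers 12 to 24, and 0 to 2 when 1 library was left out. Old repopulated against old called 1 with DESeq2, 1 with voom weights and 5 within numbers 12 to 24. Young repopulated against young called 4 with voom weights, 2 (Mrc1 and F13a1) with only the groups compared and 4 within numbers 12 to 24. Old repopulated against young called 0 within numbers 1 to 11 and 4 to 5 when 1 library was left out, with Cbr2 the marker lost. It also lost Cbr2 with only the groups compared (edgeR adjusted p = 0.0549). Old repopulated against young repopulated called 1 with voom weights and 5 within numbers 12 to 24, and the dependence on age called 1 within numbers 12 to 24. Without young replicate 3 and old repopulated replicate 1 together, the counts were again 2, 0, 0, 5, 0 and 0. The causes were not tested.

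Over the alternatives that did not leave out 1 library, the 9 markers gave 477 values in the 5 comparisons between groups, of which 420 kept their direction and side of the threshold, 8 lost a call, 29 gained one and 20 changed sign. The 1035 values of the fits that left out 1 library lost 26 calls, gained 0 and changed sign 25 times. For the dependence of repopulation on age, 5 of 81 values changed sign in the former and 20 of 207 in the latter. No value that changed sign had been called. The interaction changed sign within numbers 12 to 24 for Mrc1 (0.40) and Cd163 (0.08), with the number term for Mrc1 (0.0036) and Cbr2 (0.08), and without young replicate 3 and old repopulated replicate 1 for Pf4 (-0.10). Lyve1 changed sign within numbers 12 to 24 for old against young (-0.66) and old repopulated against old (1.21), and with voom weights for old repopulated against young (-0.04). Stab1 did so within numbers 1 to 11 for old against young (0.27), old repopulated against old (-0.16) and old repopulated against young (0.11), and in the last also within numbers 12 to 24 (0.04), with the number term (0.03), with only the groups compared (0.01) and without young replicate 3 and old repopulated replicate 1 (0.09). Clec10a did so for old repopulated against old with RLE factors (-0.0025), upper-quartile factors (-0.0043), a mean of at least 5 CPM (-0.01), DESeq2 (-0.0022) and numbers 1 to 11 (-0.38). Folr2 did so with the number term for young repopulated against young (-0.08) and old repopulated against young repopulated (0.18), within numbers 12 to 24 for the latter (0.47), and for old repopulated against young with upper-quartile factors (-0.0083) and numbers 1 to 11 (-0.38). No paired analysis was made, because nothing in the labels says that equal replicate numbers in different groups are paired. Old and young had 2 and 3 libraries within numbers 1 to 11, which limits what that range can show, and Clec10a and Lyve1 had as few as 23 and 33 reads in a library.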
